A study of Mus musculus with 2 samples.

Results

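The cytosolic ribosomal protein genes, which encode the proteins of the ribosome outside the mitochondria, were examined in EYFP+ cells sorted from the adult mouse dentate gyrus (DG). The genes were chosen by symbol: Rpl or Rps followed by a digit, with Rplp0, Rplp1, Rplp2 and Rpsa added, and without symbols holding -ps or starting with Rps6k. The rule took 86 of the 32285 genes of the deposited tables. Of these, 52 carry large subunit names, 33 carry small subunit names, and Rps19bp1 matched by its symbol although it encodes a binding partner of a ribosomal protein. No measured value entered the rule, but the family was picked with results of these data known, so what follows is description.

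Single-cell RNA sequencing was done on 1 WT library (NestinCreERT2; VEGFWT/WT; ROSA-STOP-EYFP) and 1 iKD library (NestinCreERT2; VEGFfloxed; ROSA-STOP-EYFP). The study asked what VEGF, the vascular endothelial growth factor encoded by Vegfa, does when made by neural stem and progenitor cells. Each library pooled the DGs of 5 littermates of both sexes that were 7 to 10 wk old at the start. All mice of both genotypes carried the Cre and the EYFP reporter and received tamoxifen (TAM) at 180 mg/kg/d for 5 d, and cells were sorted 21 d later. Cre is driven by the Nestin promoter, so by design EYFP should mark cells that expressed Nestin at the time of TAM and their progeny. The markers of most sorted cells, given below, were those of microglia. Whether these cells have the origin that the design intends was not tested. Pooled animals in 1 library per genotype leave no replicate error, and no difference between genotypes was tested.

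The recovered unique molecular identifiers (UMIs, each 1 captured transcript) numbered 44142118 in 5543 WT cells and 37451839 in 5261 iKD cells, with medians of 8051 and 7080 per cell. The libraries shared 9 cell barcodes. Cells lay in 12 named clusters, and the values below pool 6 of them, namely NSPCs, aNSC, qNSC2, qNSC1, IPC2 and IPC1 (3752 WT and 3412 iKD cells) unless a cluster is named. The cluster names did not match the markers. In the 6 clusters, each of 10 microglia markers had a UMI in at least 95.9% of iKD cells and 96.9% of WT cells. Each of 9 neural stem cell markers was found in at most 2.05% of WT and 1.85% of iKD cells. The astrocyte cluster had each of 8 choroid plexus markers in at least 52.2% of its cells. The names are used here only as labels of the tables.

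The ribosome joins a small subunit, which reads the messenger RNA, to a large subunit, which forms the peptide bonds. Its proteins are made in nearly equal numbers, and their transcripts are short, abundant and share a 5′ terminal oligopyrimidine motif through which the mTORC1 kinase controls their translation. Their summed level is commonly read as a measure of a cell's investment in making protein. In this assay each UMI stands for one captured 3′ end, so levels of different genes are compared without division by length.

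The members differ widely in coding length, and the difference between the libraries followed that length. The whole coding sequences of 4 short members are therefore shown, from the GENCODE annotation of GRCm38, with the start and stop codons in capitals. The build used by the authors is not given for mouse in the sources used here, so the positions may differ from those of the alignment. Rpl41, among the smallest proteins known, lies at chr10:128548114-128549305 (minus strand). Rpl39, which lines the exit tunnel of the large subunit, lies at chrX:37082520-37085402 (minus strand). Rps28, of the small subunit, lies at chr17:33819027-33824562 (minus strand). Rpl38, of the large subunit, lies at chr11:114668524-114672331 (plus strand). Each span is the whole gene, introns included.
Rpl41: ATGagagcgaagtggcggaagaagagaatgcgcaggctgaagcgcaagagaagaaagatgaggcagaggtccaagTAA
Rpl39: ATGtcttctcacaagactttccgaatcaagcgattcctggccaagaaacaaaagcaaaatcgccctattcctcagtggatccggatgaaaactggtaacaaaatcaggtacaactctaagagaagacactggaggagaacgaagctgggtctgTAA
Rps28: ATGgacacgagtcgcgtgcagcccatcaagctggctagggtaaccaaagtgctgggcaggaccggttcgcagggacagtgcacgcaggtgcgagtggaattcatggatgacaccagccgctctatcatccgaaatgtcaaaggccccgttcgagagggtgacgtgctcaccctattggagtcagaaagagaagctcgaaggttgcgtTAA
Rpl38: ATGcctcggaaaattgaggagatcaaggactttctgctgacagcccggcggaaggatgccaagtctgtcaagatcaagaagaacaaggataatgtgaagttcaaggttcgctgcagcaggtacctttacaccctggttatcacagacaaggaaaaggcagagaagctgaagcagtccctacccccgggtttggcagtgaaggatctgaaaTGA
They hold 78, 156, 210 and 213 nt in this order, stop codon included. By contrast, the coding sequences of Rpl13a, Rpl13 and Rpl5, which are described below at the other end of the ratios, hold 612, 636 and 894 nt.

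Over the 6 clusters, 81 of the 86 members had a level of at least 0.5 counts per 10,000 UMIs in the higher genotype. The family made up 5.01% of all UMIs in WT cells (1512241 UMIs) and 4.84% in iKD cells (1177510 UMIs). The mean over cells was 505 counts per 10,000 in WT, with the 5th to 95th percentile of cells at 298 to 789. In iKD it was 490, with percentiles of 282 to 768. The log2 ratio of iKD over WT was -0.04 (95% interval -0.05 to -0.04, counting error only), a difference of 3.02%, far inside the spread of cells within either library. The size of that ratio depended on the cells taken: it was -0.0866 among female cells, -0.0277 among male cells and -0.0738 without IPC2, a cluster of mostly male cells.

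Among single members, Rplp1, an acidic protein of the stalk that recruits elongation factors, had the highest level, at 17.4 in WT and 16.4 in iKD. Rps29, a zinc-binding protein of the small subunit head, came next at 14.8 and 11.8, and Rps24 at 11.7 and 11.4. Rpl13, Rps9, Rps12, Rps27a, Rpl27a and Rpl21 were also among the highest 10, with levels between 9.16 and 11.5 in either genotype. Rps27a, which is made as a fusion with ubiquitin, stood at 9.47 in WT and 9.43 in iKD. The 81 members had a median of 96.5% of cells with a UMI, and 66 of them were found in over 90% of cells.

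The family differed more between clusters than between genotypes. Its mean was highest in qNSC2, at 652 counts per 10,000 in WT and 611 in iKD. It was 571 and 570 in qNSC1, 573 and 555 in NSPCs, and 514 and 483 in aNSC. The lower clusters were NB at 466 and 476, IPC2 at 445 and 437, IPC1 at 449 and 432, and eNB at 446 and 425. The highest of these 8 cluster means was 1.44 times the lowest. Genotype ranges of neighbours overlapped for qNSC1 and NSPCs, for IPC2 and IPC1, and for IPC1 and eNB, while the other neighbours did not overlap. Single cells overlapped throughout, since 40.4% of qNSC1 cells lay above the median of qNSC2. The clusters were built with these genes among others, so the order is a description. The GEO names are used for qNSC1 and qNSC2, which a cell count sheet of the study gives the other way round. Under that naming these 2 clusters would trade places in the order and in the counts of members below.

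**Figure D1:**
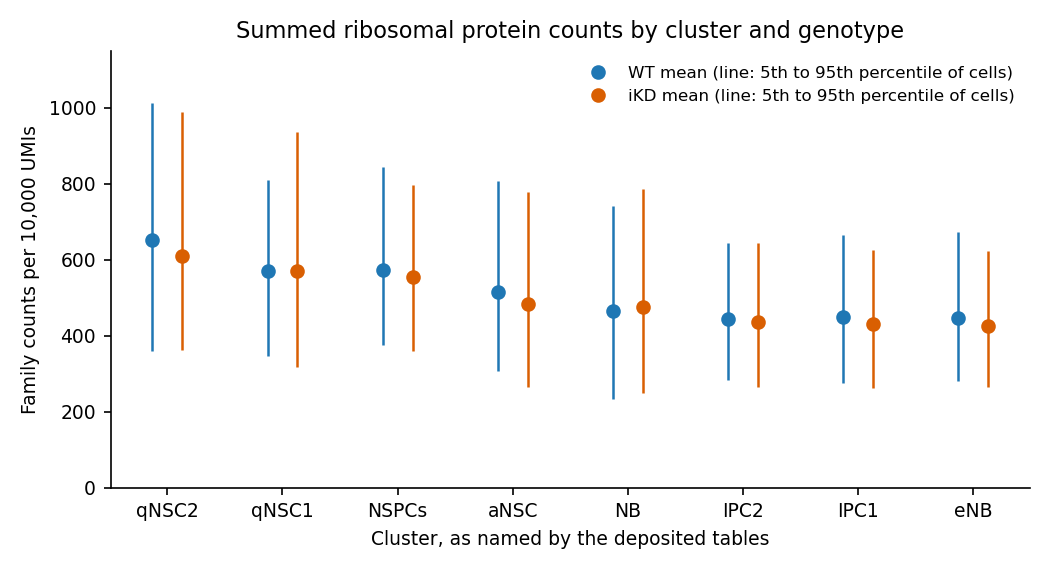
Mean summed counts of the 86 members per 10,000 UMIs (vertical axis) in 8 clusters (horizontal axis), in WT (blue) and iKD (orange), with lines from the 5th to the 95th percentile of cells. The means run from 425 in iKD eNB to 652 in WT qNSC2, and the lines overlap in every cluster.

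Single members followed the family across these clusters. Of the 81 members past 0.5, 65 had their highest level in qNSC2 and 15 in qNSC1, and 41 had their lowest in eNB. The remaining member, Rpl7l1, was highest in NSPCs. The ratio of the highest to the lowest cluster had a median of 0.55 on the log2 scale, beside 0.56 over all 4585 genes past that level, and none of the 81 reached a log2 ratio of 1, beside 13.9% of all genes. The widest ranges belonged to Rps2, at 6.85 in qNSC1 against 3.64 in its lowest cluster, Rpl10a at 6.87 against 3.76, and Rpsa at 7.32 against 4.103. Rpsa is also known as a laminin receptor precursor, and Rps2 belongs to the small subunit.

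Of the clusters outside these 8, IN2 and the undefined cells differed from them in level and in depth, the astrocyte cluster differed in level, and IN1 lay within their range of levels. IN2 cells, with a median of 3102.5 UMIs, had a mean of 86.4 in WT and 126 in iKD, with medians of 62.5 and 48.6 that ran the other way. Their microglia list summed to 139 counts per 10,000, against 356 to 462 in the 8 clusters. IN1 stood at 438 in both genotypes, with 9 iKD cells. The choroid plexus-marked astrocyte cluster had 938 in 4 WT cells and 824 in 130 iKD cells. The 40 undefined cells, with a median of 2572.5 UMIs, had 1283 and 1245. The part of depth in the levels of IN2 and the undefined cells was not tested.

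Between genotypes, 22 of the 81 members had a log2 ratio of -0.1 or below, beside 10.8% of the 3863 genes past the same level. None had a ratio of 0.1 or above, beside 11.5% of those genes. The median member ratio was -0.01 and that of all genes 0.01, and in male cells alone the member median was 0.00033. The 22 members were those with short coding sequences. All 10 members of at most 300 nt and 12 of the 17 members of over 300 and up to 400 nt were among them, and none of the 54 longer members was. These length groups were drawn after the ratios had been seen.

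Rps27, a zinc-finger protein of the small subunit, had the lowest ratio. Its level was 5.20 in WT (15460 UMIs) against 4.04 in iKD (9666 UMIs), or a log2 ratio of -0.36 (-0.40 to -0.33). The coding sequence of Rps27 is identical to that of Rps27rt, so these values are uncertain, as set out below. Rps28 was at 4.84 (14445 UMIs) in WT and 3.82 (9157 UMIs) in iKD, a ratio of -0.34 (-0.38 to -0.30). Rps29 was at 14.8 (44223 UMIs) and 11.8 (28477 UMIs), a ratio of -0.32 (-0.34 to -0.30). All 3 are small subunit proteins, and WT was the higher in each of the 8 clusters.

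Large subunit members of the same length had similar ratios. Rpl39 stood at 5.98 in WT against 4.81 in iKD, for a log2 ratio of -0.31 (-0.35 to -0.28). Rpl38 stood at 4.004 and 3.265, a ratio of -0.29 (-0.33 to -0.25), and Rpl41 at 6.06 and 5.04, a ratio of -0.27 (-0.30 to -0.23). Rps21, of the small subunit, stood at 7.87 and 6.37, a ratio of -0.30 (-0.33 to -0.27). Rpl37 and Rpl37a had a ratio of -0.30 each, and Rps27l, a paralog of Rps27, of -0.19. The intervals of all 10 short members lay below 0.

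The clusters can be followed one by one in the most abundant short member. Rps29 stood at 18.04 counts per 10,000 in WT and 14.2 in iKD cells of qNSC2, at 16.7 and 13.7 in NSPCs, and at 15.4 and 12.4 in qNSC1. In eNB it was 13.01 and 10.3, and in NB, where the gap was narrowest, 13.6 and 12.01. Every iKD value lay below the WT value of the same cluster, with ratios from -0.35 in IPC1 to -0.18 in NB. Rps27 went from 6.79 to 5.04 in qNSC2, from 5.08 to 3.55 in aNSC and from 4.41 to 3.54 in IPC1. Among female cells Rps29 was at 15.2 in WT against 11.95 in iKD, and among male cells at 14.3 against 11.5. Rpl13a ran the other way in all 8 clusters, from 7.10 in WT to 7.71 in iKD within NSPCs and from 5.80 to 6.34 within IPC2.

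Members of middle length filled the space between. Rpl36a and Rpl36, of 321 and 318 nt, had the lowest ratios among them at -0.25 and -0.24, with Rpl36 at 3.81 in WT and 3.23 in iKD. Rpl34, Rpl35a, Rps26, Rplp2 and Rpl22 followed with ratios between -0.18 and -0.15. Rps12, of 399 nt, had a ratio of -0.02, with 9.92 in WT and 9.80 in iKD. Of the 17 members, 16 had a ratio below 0, and 15 of the intervals lay below 0. These names were taken from the order of the ratios, after their values were seen, apart from Rpl36a, Rplp2 and Rps12.

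The longer members lay on the other side, at smaller sizes. Rpl13a, whose release from the ribosome is linked to translational silencing of inflammatory transcripts in myeloid cells, had 6.35 in WT and 6.80 in iKD. Its log2 ratio was 0.10 (0.07 to 0.13), just under the limit of 0.1 before rounding. Rpl13 stood at 10.7 and 11.5 (0.10, 0.07 to 0.12), Rps9 at 10.1 and 10.8 (0.09, 0.07 to 0.12), Rpl5, which carries 5S RNA into the large subunit, at 4.86 and 5.16 (0.09, 0.05 to 0.12), and Rpl12 at 4.87 and 5.13 (0.08, 0.04 to 0.11). Of the 54 members over 400 nt, 21 had a ratio below 0 and their median was 0.02. By counting error alone, 24 of the 54 intervals lay above 0 and 10 below.

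Over the 81 members, the Spearman correlation of the ratio with coding length was 0.83 and the Pearson correlation with its log2 was 0.81. Without the 10 shortest members these were 0.75 and 0.68 over 71, and among the 54 over 400 nt they were 0.56 and 0.47. With the length of the whole transcript the Spearman correlation was 0.60, with the length of the 3′ UTR 0.11, with GC content 0.12 and with the level of the member 0.13. The members share 2 libraries and the depth of their cells, so these values describe the libraries and carry no test. The median ratio was -0.30 up to 300 nt, -0.12 over 300 and up to 400 nt, -0.02 up to 500 nt and 0.04 up to 600 nt.

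**Figure D2:**
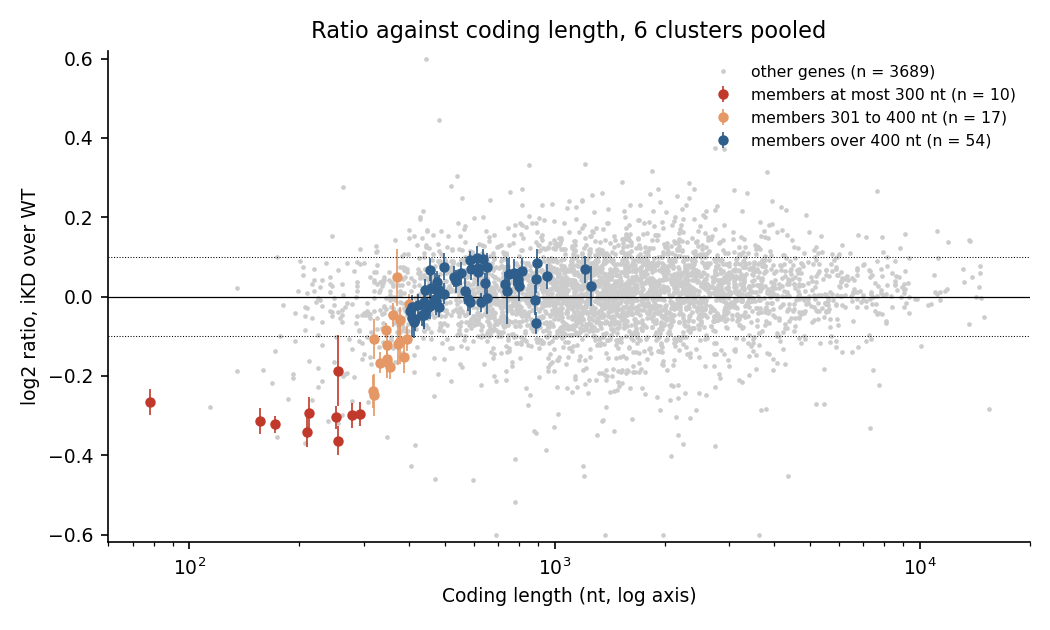
The log2 ratio of iKD over WT (vertical axis) against coding length in nt (log axis) for 81 members, coloured by length, with 95% counting intervals, and for 3689 other genes in grey, values beyond the axis being drawn at its edge. Dotted lines mark 0.1 and -0.1, and every member below the lower line has at most 400 nt.

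Short genes outside the family leaned the same way with wider scatter. Among the 3689 other genes with a coding length, the Spearman correlation with coding length was 0.10. It was 0.35 among the 303 other genes with a transcript of at most 1000 nt. The 16 other genes with at most 200 nt had a median ratio of -0.16, and the 84 with over 200 and up to 300 nt had -0.04. Among 40 other genes of at most 300 nt coding and 600 nt transcript length, 35 had a ratio below 0. Of these 40, 22 (55%) were at -0.1 or below, beside 10.8% of all genes. Without the limit on transcript length, 10 of the 16 (62.5%) and 24 of the 84 (28.6%) were. Of the 1716 other genes with over 1500 nt of coding sequence, 40.1% had a ratio below 0. Sec61g, a subunit of the channel that carries proteins into the endoplasmic reticulum, was at 1.06 in WT and 0.821 in iKD, and Cops9, of the COP9 signalosome, at 0.718 and 0.559. Dbi, at 0.592 and 0.719, was the highest of the 40 in ratio. These genes were named by their place at the ends of that list, after their values were seen.

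Summed over the 10 short members, the level was 63.8 counts per 10,000 in WT against 51.5 in iKD, for a log2 ratio of -0.31 (-0.32 to -0.30). The 54 longer members summed to 342 and 346, a ratio of 0.02 (0.02 to 0.02). The short members took 12.6% of family UMIs in WT (12.56 to 12.66, exact binomial interval) and 10.5% in iKD (10.45 to 10.56). Per cell, the median share was 12.6% in WT, with the middle 90% of cells between 9.38% and 15.8%. In iKD it was 10.5%, between 7.47% and 13.6%, and 87.4% of iKD cells lay below the WT median.

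**Figure D3:**
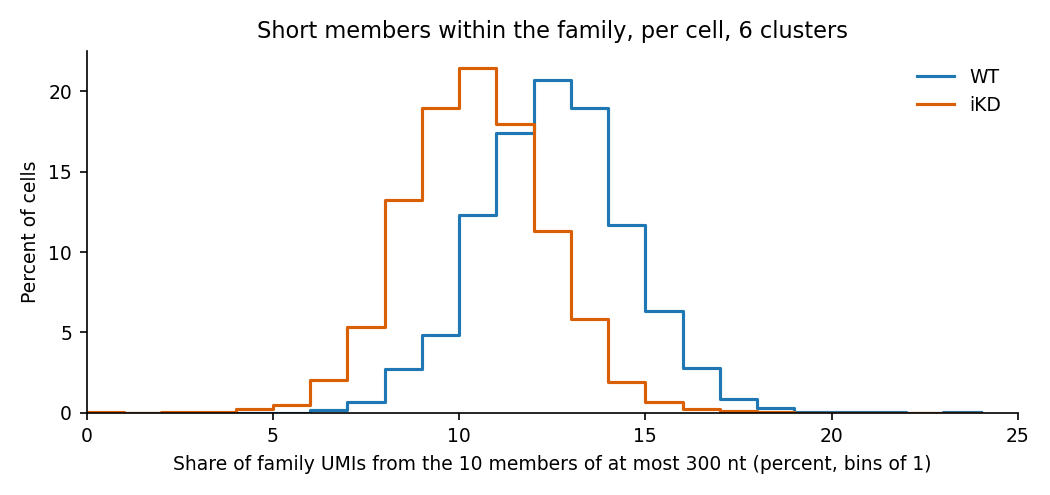
Percent of cells (vertical axis) by the share of a cell's family UMIs that came from the 10 members of at most 300 nt (horizontal axis, percent), for WT (blue, 3752 cells) and iKD (orange, 3412 cells) in the 6 clusters. The curves overlap, with medians of 12.6% and 10.5%.

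The same order of the length groups held within each of the 8 clusters. The median ratio of the short members was between -0.38 in aNSC and -0.19 in NB, and that of the longer members between -0.03 in qNSC2 and 0.09 in NB. Of the 80 pairs of a short member and a cluster, 78 had a ratio below 0. In eNB the medians were -0.33 and 0.00, and in IPC2 they were -0.30 and 0.05. The clusters come from the same 2 libraries and are not replicates. Outside the 8 clusters the order did not always hold, though the short members stayed below the longer ones. In the 130 iKD and 4 WT cells of the astrocyte cluster, which carry choroid plexus markers, the short, middle and longer medians were -0.31, -0.09 and -0.17. In IN2 they were all above 0, at 0.30, 0.26 and 0.65. In IN1, with 9 iKD cells, they were -0.44, 0.049 and 0.045. The undefined cells kept the order, at -0.37, -0.06 and 0.02.

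**Figure D4:**
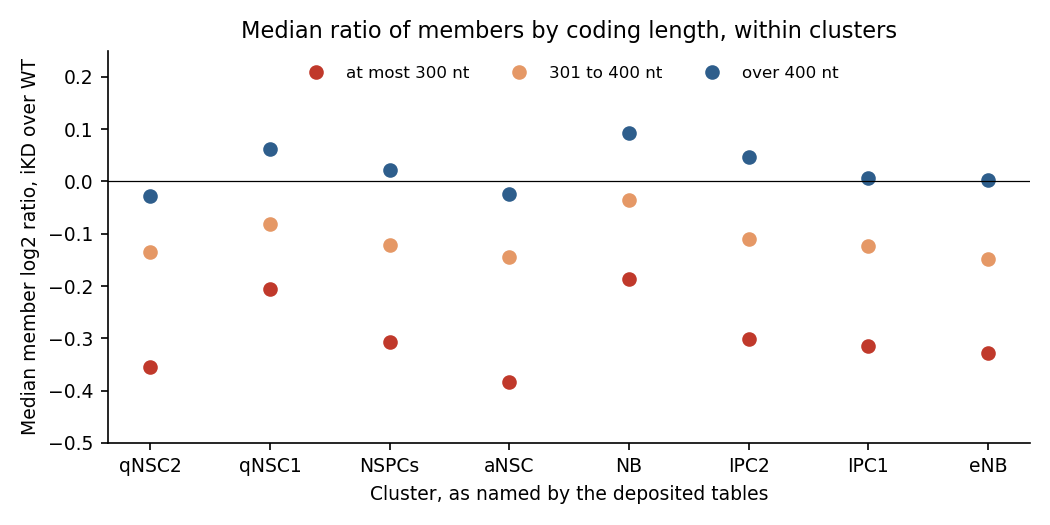
Median log2 ratio of iKD over WT (vertical axis) of the members of at most 300 nt (red), over 300 and up to 400 nt (light orange) and over 400 nt (blue) in 8 clusters (horizontal axis). In each cluster the 3 medians keep one order, lowest for the short members, which lie between -0.38 and -0.19.

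Cells of either sex gave the same order. Cells with an Xist UMI and no Y-linked UMI were scored female and the reverse male, which gave 65.4% female cells in iKD and 47.0% in WT. In female cells, the short members had a median ratio of -0.34, and 26 members were at -0.1 or below, beside 14.8% of genes, with 0 at 0.1 or above, beside 20.6%. In male cells the median of the short members was -0.29. Of the 81 members, 18 were at -0.1 or below in male cells, which is close to the 18.8% of genes. At 0.1 or above were 5, beside 20.9%. All 10 short members were lower in iKD in both. The ratios of the 81 members in female and male cells had a Pearson correlation of 0.90. The family mean was 523 in WT and 492 in iKD female cells, and 486 and 477 in male cells.

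Several measures of the libraries moved with genotype. In WT cells of over 5000 and up to 7000 UMIs the median short share was 12.6%, against 10.6% in iKD cells of that depth. It was 12.9% against 10.2% up to 5000 UMIs, and 12.6% against 10.3% at over 7000 and up to 9000 UMIs. At over 9000 UMIs it was 12.5% against 10.5%. The family mean was lower in iKD in each band over 5000 UMIs. Up to 5000 UMIs that mean was 527 in WT and 542 in iKD. A list of 10 dissociation genes summed to 94.5 counts per 10,000 in WT and 103 in iKD, with 6 of the 8 genes past 0.5 at 0.1 or above, beside 11.5% of all genes. Hspa1a and Hspa1b of that list, both under 0.5, ran the other way. Hspa1a had 442 UMIs in WT and 162 in iKD (log2 ratio -1.08), and Hspa1b 119 and 16 (-1.63). The choroid plexus list summed to 0.153 in WT and 10.6 in iKD, a difference not spread over its 8 genes. In iKD, 1 of them was found in over 50% of cells (99.7%) and 6 in under 5%. The highest share in WT was 9.46%. The median mitochondrial share was 0.852% and 0.835%. The part of these measures in the ratios was not tested, and library preparation and genotype cannot be told apart with 1 library each.

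Both subunits had like ratios. The 52 large subunit members summed to 289 counts per 10,000 in WT against 281 in iKD, for a log2 ratio of -0.04 (-0.05 to -0.04). The 33 small subunit members summed to 216 and 209, a ratio of -0.05 (-0.05 to -0.04). The ratio of large to small subunit UMIs was 1.34 in both genotypes. Across cells, large and small subunit levels had a Pearson correlation of 0.93 in 3752 WT cells and 0.93 in 3412 iKD cells, values which share each cell's depth and are a description.

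The stalk and X-linked members showed the same split by length. Rplp0, the long stalk protein, stood at 5.74 in WT against 5.95 in iKD, for a log2 ratio of 0.05. Rplp1, of 345 nt, had a ratio of -0.08, and Rplp2, of 348 nt, stood at 6.24 and 5.59, a ratio of -0.16 (-0.19 to -0.13). On the X chromosome, Rpl39 and Rpl36a had ratios of -0.31 and -0.25, with Rpl36a at 2.30 in WT and 1.93 in iKD. Rpl10, which joins the large subunit late in its assembly, stood at 8.57 and 8.78, a ratio of 0.03, and Rps4x at 7.93 and 8.17, a ratio of 0.04. In WT cells the log2 ratio of female over male was 0.05 for Rpl10 and 0.13 for Rpl39, against 0.10 for the whole family. In iKD cells these were 0.06, 0.03 and 0.05. The sexes were spread unevenly over clusters, with 0.769% female cells in WT IPC2 and 69.7% in WT NSPCs. The part of the clusters in these ratios was not tested. Rpsa stood at 4.83 in WT and 4.98 in iKD, a ratio of 0.04.

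Among the paralogs, Rpl36al stood at 2.52 in WT and 2.34 in iKD, a ratio of -0.11, and Rps27l at 0.819 and 0.719. Rpl22l1, a paralog of Rpl22, stood at 1.13 and 1.16, and Rpl7l1 at 0.864 and 0.873. The coding sequences of Rps27 and Rps27rt are identical over all 255 nt. Reads within them cannot be assigned to either gene by sequence, and both values are uncertain. Rpl39 and Rpl39l share 85.3% of aligned bases, and Rpl36a and Rpl36al 87.9%.

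The 5 members under 0.5 were as follows. Rps27rt had 329 UMIs in WT and 169 in iKD (95% Poisson intervals 294 to 367 and 144 to 196). Rpl39l had 80 and 46 UMIs, and Rps19bp1 1071 and 763. Rpl10l, described from testis, and Rpl3l, described from striated muscle, had no UMI in the 6 clusters. For each of these 2, a count of 0 has an upper Poisson bound of 3.69 UMIs in either genotype. Rpl3l had 1 UMI elsewhere in the WT library.

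Genes that act with the ribosome had ratios on both sides of 0, and the counts in the lists that follow stand beside 10.8% of all genes at -0.1 or below and 11.5% at 0.1 or above. Among ribosomal proteins under other symbols, Fau, of 402 nt, stood at 16.68 in WT and 16.04 in iKD, a ratio of -0.06, and Rack1 at 3.74 and 3.94, a ratio of 0.07. All 11 genes on a list of elongation factors and 5′ terminal oligopyrimidine genes passed 0.5. Of these, 1 was at 0.1 or above and none at -0.1 or below, with Hnrnpa1 highest at 0.11 and Btf3 lowest at -0.02. The median of that list, which shares Npm1 with the ribosome assembly genes below, was 0.01.

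Initiation factors, with 25 of 29 past 0.5, had 3 at -0.1 or below and 2 at 0.1 or above, which is near the shares of all genes, with Eif3j1 lowest at -0.12 and Eif5a highest at 0.11. Ribosome assembly genes had 7 of 29 past 0.5, of which Wdr43 was lowest at -0.11 and Ubtf, a factor of ribosomal DNA transcription, highest at 0.07, and 1 was at -0.1 or below. Among 12 of 24 mTORC1 genes past 0.5, Ddit4, an inhibitor of mTORC1 that stress hormones induce, was lowest, at 1.51 in WT and 0.768 in iKD, and Rheb, which activates mTORC1, highest at 0.09, with 2 genes at -0.1 or below and none at 0.1 or above. Ddit4 had a ratio of 0.08 among female cells, but -1.85 among male cells. Of 12 mitochondrial ribosomal protein genes past 0.5, of 78, 2 were at -0.1 or below, with Mrps21, of 264 nt, lowest at -0.20 and Mrpl43 highest at 0.09. Of 4 S6 kinase genes past 0.5, Rps6ka5 was highest at 0.22 and Rps6ka3 lowest at -0.01.

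Over the 8 clusters in both genotypes (16 values), the level of Eef1b2, a subunit of the elongation factor exchange complex, tracked the family mean most closely of the 2591 other genes that reached a level of at least 1 in any of them, with a Pearson correlation of 0.96. Serf2, Fau and Eef1a1 followed at 0.96 each, then Sh3bgrl3 at 0.94 and Rack1, Gas5 and Cd81 at 0.92. Ctss and Klk8 completed the 10, at 0.91 each. Eef1a1, which delivers transfer RNAs to the ribosome, ranged from 14.1 to 21.7 counts per 10,000, and Gas5 is a host gene of small nucleolar RNAs with a 5′ terminal oligopyrimidine motif. The 16 values share 2 libraries and clusters built with these genes, so the correlations are descriptions.

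The spread of the family between cells exceeded counting error. After each cell was thinned to 4500 UMIs, which left out 65 WT and 151 iKD cells of the 6 clusters, the family had a mean of 227 UMIs and an SD of 68.3 in WT, where counting alone would give 14.7. In iKD the mean was 219 and the SD 66.8, where counting alone would give 14.4. Within NSPCs the SDs were 63.8 and 59.6. Single members had a median variance-to-mean ratio of 1.33 in WT and 1.31 in iKD, where counting alone gives about 1. For the sum of the family it was 20.5 and 20.4. At a given relative spread between cells this ratio grows with the mean count. Single members and the sum can therefore not be compared in size by it.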

How the data were processed

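Each deposited table, 1 for each of 12 clusters, held natural log values that the authors computed as the log of 1 plus counts per 10,000 UMIs of the cell. Per the methods, CellRanger aligned and deduplicated the reads and Seurat filtered, integrated and clustered the cells. The submitters' processing notes list Cell Ranger 7.0.1 and Seurat 4.1.1. UMI counts were recovered from the natural log values, because within a cell each value, once exponentiated and reduced by 1, is an integer number of equal steps. Of 32261786 values above 0, 100% came out whole within a relative tolerance of 0.01, and 0 columns were left unused. No cells were removed and no doublet caller was run.

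A level is the mean over cells of counts per 10,000 UMIs, and a ratio is log2 of iKD over WT with a pseudocount of 0.01, which understates the ratio of low genes. Genes under 0.5 in both genotypes were not counted. A log2 ratio of 0.1 in size (1.07-fold) stands in for a call, since 1 library per genotype allows no test. Cells are not replicates. Intervals are exact, at 95%, Poisson for UMIs and binomial for shares and ratios, and cover counting error only. Sex was scored from Xist and 4 Y-linked genes, and 8.68% of cells stayed unscored. Coding lengths were those of the principal GENCODE M21 transcript for 86 of 86 members, matched by symbol.

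The members and gene lists were chosen with earlier results of these data known. Named members are the 10 highest, the 5 highest and 5 lowest ratios, the 5 widest over clusters, and the stalk, X-linked, paralog and low members. Named genes outside the family are the 10 most alike over clusters and the ends of each list. Some items that this rule takes are not reported here. The grouping by coding length was chosen after seeing the data. Alternatives were other scalings, pseudocounts, cells, depths and the omission of the low-level filter. The steps were tested on simulated data. Calculations used pandas 2.3.3, scipy 1.17.1 and numpy 2.4.6 under Python 3.11.15.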

Additional observations from a re-analysis of the deposited data

Results flagged for a closer look

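Rpl22l1, of 369 nt, went opposite ways in the sexes. Its log2 ratio of iKD over WT was -0.11 in cells scored female and 0.28 in cells scored male, on levels near 1.1 counts per 10,000. The difference was not tested, since each sex comes from the same 2 pooled libraries. The sexes also differed in their clusters. Female cells made up 0.769% of WT IPC2 cells, and 19.3% of WT against 88.9% of iKD aNSC cells. The part of the clusters in the 2 ratios was not tested.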

How the results depend on the processing

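Rps27, Rps28, Rps29, Rpl39 and Rps21, the short members recomputed one by one, stayed lower in iKD under the alternatives run for them. The gap between the medians of the short and longer members was -0.32 and became -0.34 in male cells, -0.28 with a pseudocount of 1 and -0.30 with the 10 shortest transcripts, and was not computed without the filter on low levels. The 10 members at the ends of the ratios kept their direction in 130 of 130 values. They were picked by the ratios of these same counts, which the alternatives reuse, so the kept directions carry no support of their own. The count of members at -0.1 or below was 22. It was 17 with a pseudocount of 1, 25 without the low-level filter and 23 without IPC2. In female cells it was 26, beside 14.8% of all genes, and in male cells 18, beside 18.8%. Without the 10 shortest members, an alternative chosen after seeing the data, the count was 12 by construction. The family ratio of -0.04 was less stable in size. It was -0.0503 with summed UMIs, -0.0538 with scaling by the median ratio, -0.0519 as the mean of within-cluster ratios and -0.0539 after thinning. It was -0.0866 in female cells, -0.0277 in male cells, -0.0738 without IPC2 and -0.0096 without the 10 short members. The median member ratio of -0.01 was -0.0614 in female cells, -0.0502 without IPC2 and 0.00033 in male cells, where the sign turned. Members at 0.1 or above numbered 0, but 5 in male cells and 1 by within-cluster means. The large over small subunit ratio, 0.01 between genotypes on the log2 scale, was -0.0135 without the short members. The range over clusters of 1.44 was 1.55 in female cells, 1.40 in male cells and 1.46 in WT cells. The causes were not tested. No paired analysis was possible because the only shared replicate number joins 1 library of each genotype and no test was made. One library per genotype limits all values, and depth limits the members under 0.5.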
